A study of Mus musculus with 8 samples.

Results

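The genes described here are those of the mouse mitochondrial genome, taken as every row of the deposited gene table whose chromosome is MT. They number 37 of the 54139 genes in the table: 13 protein-coding genes, 2 rRNAs and 22 tRNAs by the biotype the table gives. They were measured by RNA sequencing of mouse intestinal epithelial cells in 8 libraries. The 4 control libraries, labelled WT, came from the Villin-Cre genotype, and the 4 knockout libraries, labelled cKO, came from Rictor Flox with Villin-Cre. Both groups therefore carry the Cre transgene, whose villin promoter is active in intestinal epithelium, and the labels give no group without it. Rictor encodes a subunit that mTOR complex 2, a growth factor-responsive kinase complex, cannot form without. Age, sex, segment of intestine and whether each library came from its own mouse are stated in none of the sources used here, so the p-values below measure the spread between these libraries, which may be technical.

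Mitochondrial DNA is a small circle kept in many copies per cell, and its proteins are all membrane subunits of the respiratory chain and of ATP synthase. Both strands are transcribed by the polymerase POLRMT, with TFAM bound at the promoters, into long RNAs that are cut mostly at the tRNAs lying between the other genes. The released mRNAs are then polyadenylated and held by LRPPRC, so that members of one primary transcript can differ in level after processing. Absorptive enterocytes are rich in mitochondria. Stretches of mitochondrial DNA have also been copied into nuclear chromosomes during evolution, and a recent copy can be identical to its source.

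Library totals ran from 15110451 counts in cKO 4 to 18708335 in WT 1. Rictor lay between 41.7 and 57.3 CPM (counts scaled to a common library size) in the WT libraries and between 20.8 and 40.5 CPM in the cKO libraries, with no overlap, and its log2 fold change of -0.55 ± 0.20 (SE, n = 4 against 4) had an edgeR adjusted p of 0.921. The labelled cell type was checked with marker lists: 10 enterocyte markers summed to between 8742 and 22035 CPM per library, while 5 fibroblast and 4 erythroid markers summed to at most 1.72 and 1.61 CPM. Markers of T cells and intraepithelial lymphocytes summed to between 139.6 and 433 CPM. Library cKO 3 differed from the other libraries in its trend with GC content, with a slope of 0.40 log2 units per 10 percentage points of GC against -0.11 to -0.021 elsewhere. Of 14701 genes tested across the table, edgeR's quasi-likelihood test with Benjamini-Hochberg adjustment called 2, or 0.0136%, at an adjusted p below 0.05.

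Which members can be read as mitochondrial depends in part on how much of their sequence also lies in nuclear transcripts. Each member was cut into all its windows of 100 bases, and these were searched letter for letter in the nuclear transcripts of the GENCODE M21 annotation (build GRCm38), whose coordinates for all 37 members were identical to those of the deposited table. For 5 of the 13 mRNAs over 90% of windows were found: 99.5% for mt-Co2, 99.5% for mt-Atp6, 99.9% for mt-Co3, 97.6% for mt-Nd3 and 98.5% for mt-Nd4l. mt-Nd4 with 60.8% and mt-Co1 with 30.8% stood between, and the remaining 6 mRNAs and both rRNAs had at most 3.19%. With windows of 50 bases mt-Nd2 had 8.19% and mt-Nd5 7.61%. Nuclear sequence outside annotated transcripts was not searched, so a low percentage does not show that a member has no nuclear copy. The annotation holds a run of 7 unprocessed pseudogenes on chromosome 1, minus strand, between positions 24611535 and 24616197, which follow the order of the mitochondrial genome from the end of mt-Co1 to mt-Nd4. A second run on chromosome 2, from 22587291 to 22590533, held 3 more pseudogenes with 96.7% to 97.6% identity to their members.

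The chromosome 1 copies are close enough to be shown by 1 example. Gm28438 (chr1:24612775-24613119, minus strand) aligned to 345 of the 348 bases of mt-Nd3 (chrM:9459-9806, plus strand), a small subunit of complex I, with 1 difference, T3C, counted from 1 at the first base of mt-Nd3. The first 60 bases of each are given 5′ to 3′ with the differing base in capitals, and no further difference follows in the aligned stretch.
mt-Nd3: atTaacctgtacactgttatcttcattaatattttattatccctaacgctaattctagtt
Gm28438: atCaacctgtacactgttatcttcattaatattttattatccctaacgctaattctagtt
Gm10222 for mt-Nd4l, Gm28437 for mt-Co3, Gm10925 for mt-Atp6, Gm28661 for mt-Co2 and Gm28439 for the first 876 bases of mt-Nd4 had 0 differences from their members. A read from inside these stretches therefore carries no base that tells the 2 sources apart.

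The chromosome 2 copy of mt-Co1 is more distant and is shown for contrast. Gm13340 (chr2:22588103-22589647, minus strand) aligned over all 1545 bases of mt-Co1 (chrM:5328-6872, plus strand), the catalytic subunit of complex IV, with 37 differences and 97.6% identity. The first 180 bases hold 3 of them, C54A, A60G and G87A by mt-Co1 position, which stand in capitals below.
mt-Co1: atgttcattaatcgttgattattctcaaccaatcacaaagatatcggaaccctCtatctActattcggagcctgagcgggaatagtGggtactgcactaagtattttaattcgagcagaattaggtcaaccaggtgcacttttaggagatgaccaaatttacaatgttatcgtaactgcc
Gm13340: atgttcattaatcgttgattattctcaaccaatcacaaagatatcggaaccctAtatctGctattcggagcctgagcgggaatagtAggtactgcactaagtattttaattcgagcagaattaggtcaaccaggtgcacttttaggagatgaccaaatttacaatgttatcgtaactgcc
Gm13340 received 158 to 236 counts per library against 453453 to 652887 for mt-Co1.

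Level per length differed widely between members. By deposited FPKM (fragments scaled to transcript length and library size), mt-Co1 had the largest mean of the 37 members, 19871 over 8 libraries. It was followed by mt-Cytb, the cytochrome b subunit of complex III, with 10304, and by the complex I subunits mt-Nd1 with 6067, mt-Nd2 with 3412, mt-Nd4 with 2588, mt-Nd5 with 2096 and mt-Nd6 with 1610.4. These 7 mRNAs kept that order in 8 of 8 libraries. The ranges over libraries did not overlap between mt-Co1, mt-Cytb, mt-Nd1 and mt-Nd2, whereas from mt-Nd2 down to mt-Nd6 each neighbour in the order overlapped the next. Of the windows of mt-Nd4 60.8%, and of those of mt-Co1 30.8%, also lay in nuclear transcripts. The part of read assignment in the level and rank of these genes was not tested. mt-Nd6 is the mRNA encoded on the minus strand of the annotation, opposite to the other 12.

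**Figure D1:**
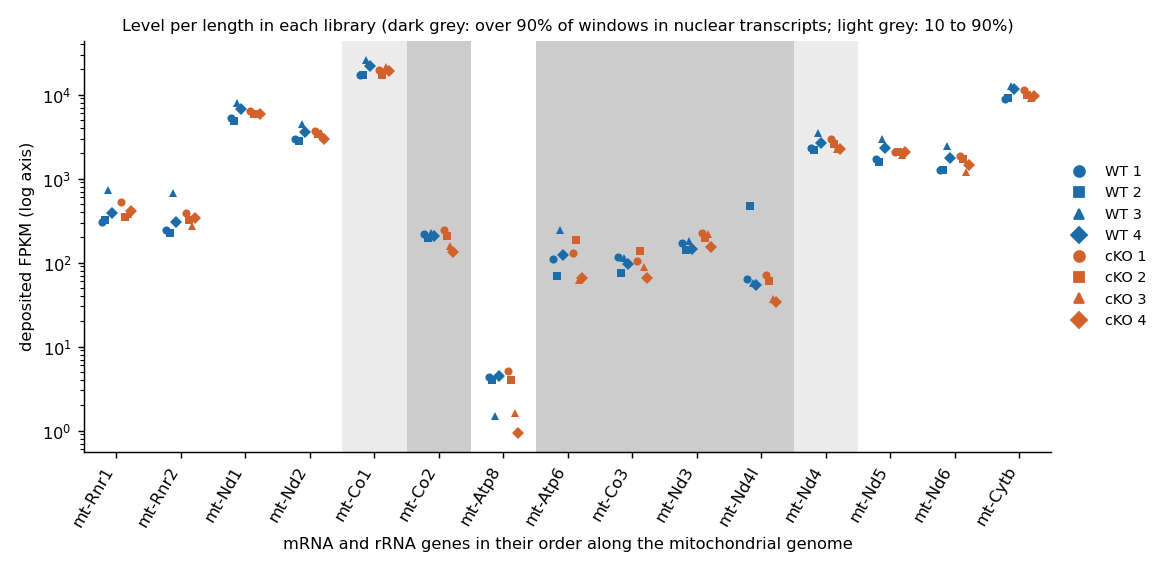
Deposited FPKM (log axis) of the 13 mRNAs and 2 rRNAs in genome order, 1 point per library, WT in blue and cKO in orange. The 5 genes on dark grey, whose windows were over 90% present in nuclear transcripts, lie between 34.3 and 473 FPKM, below the lowest value of the other mRNAs except mt-Atp8, 1203 FPKM.

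The 5 mRNAs with near-complete nuclear copies sat lower. Their mean FPKM ran from 100.4 for mt-Co3 to 200.3 for mt-Co2, and in 8 of 8 libraries the highest of the 5 was below the lowest of the 7 mRNAs above. mt-Co2 and mt-Co3 encode the other core subunits of complex IV, and mt-Atp6 a proton-channel subunit of ATP synthase. All 5 come from the same strand and the same primary transcript as mt-Co1 and mt-Nd4. How the submitters' pipeline treated reads with several equally good positions is stated in none of the sources used here, so these 5 values cannot be read as the level of the mitochondrial mRNA, and the part of read assignment in their low level was not tested.

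mt-Atp8, a short accessory subunit of ATP synthase, was lower still, with a mean of 3.26 FPKM. Its 204 bases (chrM:7766-7969, plus strand) are printed with the 43 bases it shares with the start of mt-Atp6 in capitals, since reads there belong to both genes.
mt-Atp8: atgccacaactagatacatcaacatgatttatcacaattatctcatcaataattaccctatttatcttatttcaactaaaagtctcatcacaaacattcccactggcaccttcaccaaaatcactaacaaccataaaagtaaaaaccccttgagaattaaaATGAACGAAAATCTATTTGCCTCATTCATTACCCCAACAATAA
It received 17, 15, 5 and 15 counts in WT 1 to 4 and 18, 14, 6 and 3 in cKO 1 to 4. None of its windows was found in an annotated nuclear transcript, yet it lies between mt-Co2 and mt-Atp6, and the 230 bases that separate those 2 genes have a counterpart of 233 bases between Gm28661 and Gm10925 on chromosome 1. The letters of that interval were not analysed here, because it is in no annotated transcript.

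The nuclear copies themselves received counts. Gm28661 was given 2282, 2250, 2455 and 2257 counts in WT 1 to 4 and 2553, 2045, 1800 and 1280 in cKO 1 to 4, against 2880, 2462, 2516 and 2371 and then 2897, 2467, 1955 and 1441 for mt-Co2. The copy and its member are separate rows of the table, and the count of the copy came to between 79.2% and 97.6% of that of mt-Co2 in each library. The same ratio was 49.1% to 149.5% for Gm10925 and mt-Atp6, 39.2% to 80.6% for Gm28437 and mt-Co3, and 6.48% to 10.1% for Gm28438 and mt-Nd3. It was 0.528% to 0.840% for Gm28439, which covers 63.6% of mt-Nd4, and at most 0.120% for Gm29216 and mt-Co1. Summed over the 10 copies, the WT libraries averaged 334.7 ± 46.2 CPM against 312.9 ± 71.1 CPM for the cKO libraries (SD, n = 4 each), a difference of -21.9 CPM with an exact two-sided permutation p of 0.571.

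**Figure D2:**
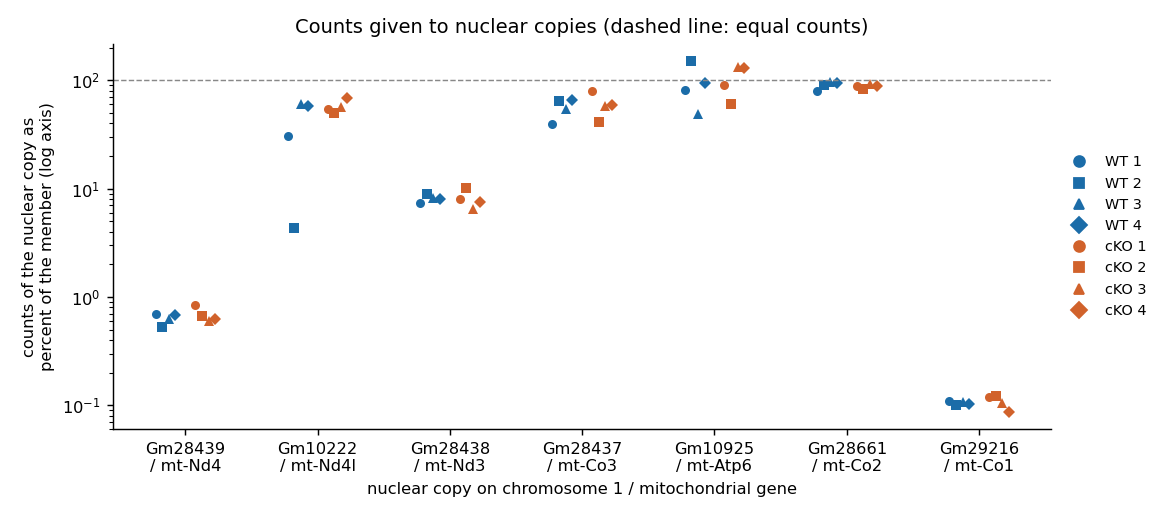
Counts of each chromosome 1 copy as percent of the counts of its mitochondrial member (log axis), 1 point per library, with the dashed line at equal counts. Gm28661 stays between 79.2% and 97.6% in all 8 libraries, while Gm10222 drops to 4.37% in WT 2 alone.

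Set against the rest of the transcriptome, chromosome MT took a moderate and variable part of each library. Its share of all counts was 5.39%, 5.28%, 7.71% and 6.96% in WT 1 to 4 and 6.24%, 5.997%, 5.96% and 6.09% in cKO 1 to 4. The cKO values all lay inside the WT range, and the WT libraries were the more spread, with 6.33% ± 1.19 against 6.07% ± 0.122 (SD, n = 4 each). The difference of -0.26 percentage points had an exact two-sided permutation p of 0.571, where 4 against 4 cannot go below 0.0286, and an adjusted p of 0.943 over the 8 shares and ratios compared. Without WT 3 the difference was 0.19 percentage points with an exact p of 0.829. In bulk samples, fewer cells of a type and less mitochondrial RNA per cell cannot be told apart.

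**Figure D3:**
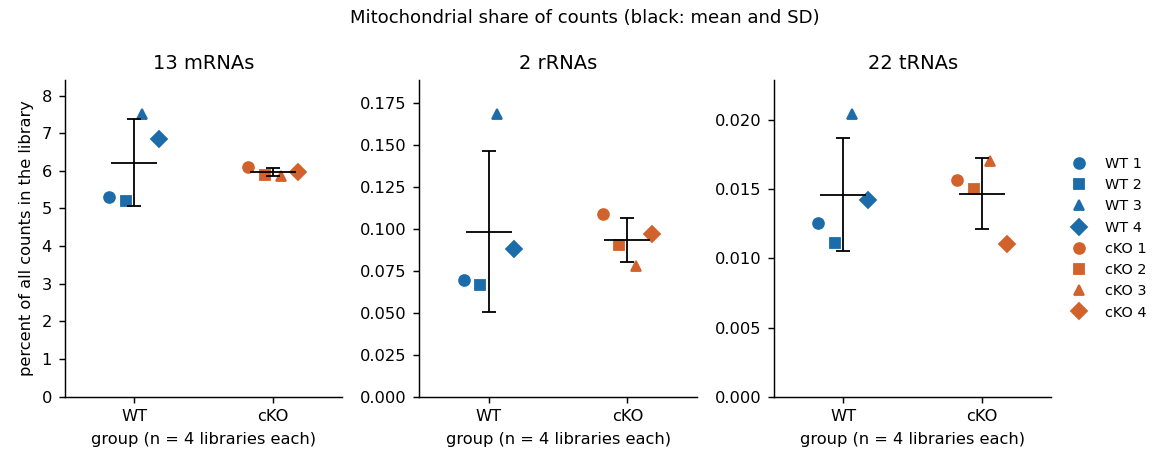
Percent of all counts that fell on the 13 mRNAs, 2 rRNAs and 22 tRNAs in each library, with the mean and SD of 4 libraries per group in black. WT 3 is the highest point in all 3 panels, and the cKO mRNA shares lie between 5.87% and 6.11%.

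WT 3 also had the highest enterocyte marker sum, 22035 CPM against 8742 to 15711 CPM in the other 7 libraries, the next being cKO 1. The share of counts on chromosome MT did not follow that sum in every library: WT 3 was the highest of the 8 for both, while WT 4, with the next highest share of 6.96%, had 10046 CPM, and cKO 3, with a marker sum of 12363 CPM, had a share of 5.96%. The part of enterocyte content in the mitochondrial share was not tested.

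Within chromosome MT, the mRNAs took 97.5% to 98.5% of counts in every library. mt-Co1 alone held 46.5% to 53.8%, and mt-Co1 with mt-Cytb 66.7% to 70.9%. The library kit is not stated, so the share of counts on mRNAs cannot be read as the part of mRNA in mitochondrial RNA. By protein complex, genes of complex I took 28.97% ± 0.991 of mRNA counts in WT and 29.4% ± 1.70 in cKO, those of complex IV 51.3% ± 0.342 and 51.0% ± 3.23, and those of ATP synthase 0.145% ± 0.0507 and 0.130% ± 0.0731 (SD, n = 4 each). These shares include mRNAs with near-complete nuclear copies: mt-Nd3 and mt-Nd4l, mt-Co2 and mt-Co3, and mt-Atp6. The ATP synthase share holds only mt-Atp6 and mt-Atp8, the latter with 3 to 18 counts per library. It therefore cannot be read as the part of ATP synthase in mitochondrial mRNA. For complex IV the cKO libraries lay on both sides of the WT values of 51.0% to 51.8%, with 49.1% and 47.8% in cKO 1 and cKO 2 and 55.0% and 52.1% in cKO 3 and cKO 4. For all 7 ratios and shares within chromosome MT the groups overlapped, with exact permutation p from 0.686 to 0.943 and an adjusted p of 0.943 for each.

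None of the 28 members that passed the filter on low counts was called in cKO against WT by edgeR. The smallest adjusted p among them was 0.921, and the 2 groups overlapped in CPM for each of the 28, where 3.21% of all 14701 genes had groups that did not overlap. At an unadjusted p below 0.05, edgeR gave 1 member of 28, mt-Nd3, against 3.9% of all tested genes. DESeq2's Wald test called 0 of the 27 members it gave an adjusted p, again with 1 at an unadjusted p below 0.05, against 4.15% of all genes. The 9 untested members were tRNAs with 0 to 62 counts over all libraries.

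The point estimates of the mRNAs and rRNAs were mostly below 0, with that of mt-Nd4l, -1.68, farthest from it. Of these 15 members, 14 were lower and 1 was higher in cKO, with a median log2 fold change of -0.078, where 50.5% of all tested genes were higher and their median was 0.0022. All 15 share their libraries, and the direction turned when 1 of these libraries was left out. Without WT 3, 12 members were higher and 3 lower, with a median of 0.087, where 51.1% of all tested genes were higher. In that fit edgeR gave 5 of the 28 members an unadjusted p below 0.05, against 4.33% of all genes tested, and called 0. WT 3 was the highest of 8 libraries for 10 of the 15, and WT 2 the lowest for 7. Without both libraries numbered 3 the median was 0.12, and it was 0.12 with offsets for transcript length and GC content and 0.047 with limma's sample quality weights.

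**Figure D4:**
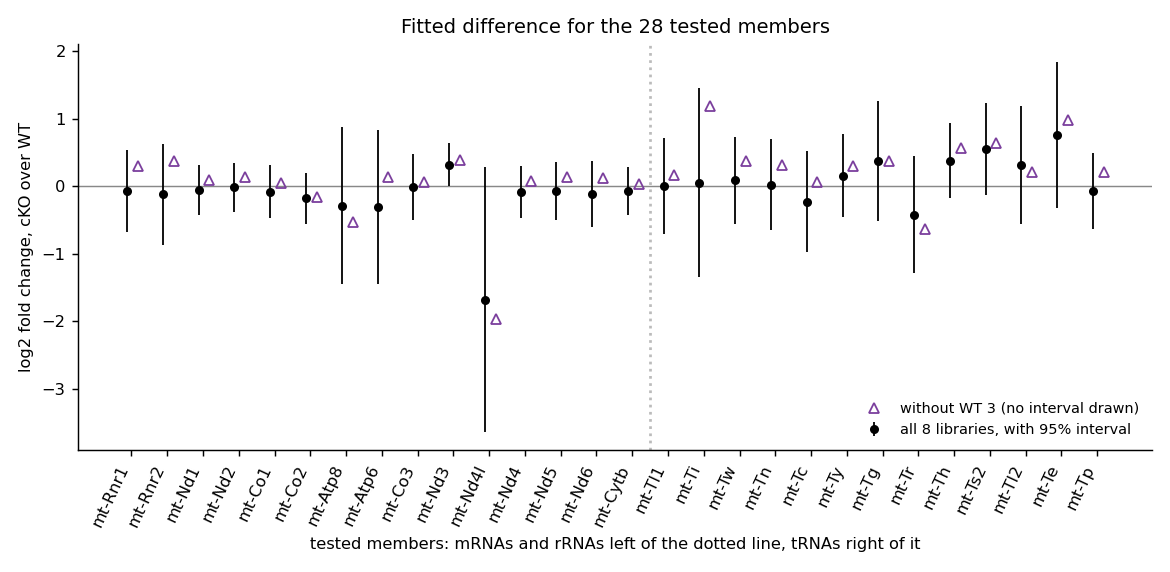
Log2 fold change of cKO over WT for the 28 tested members from edgeR, as black points with 95% intervals for all 8 libraries and open triangles without WT 3. Leaving out WT 3 moves 11 of the 15 mRNAs and rRNAs from below 0 to above 0; mt-Nd4l has an interval reaching from -3.63 to 0.28.

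Complex I takes electrons from NADH, and 7 of its core subunits are members. mt-Nd1, at 5092, 4632, 7652 and 6550.0 CPM in WT 1 to 4 and 6125, 5692, 5628 and 5606 CPM in cKO 1 to 4, had a log2 fold change of -0.054 ± 0.17 (SE). The cKO libraries lay within 1 standard deviation of the WT mean and inside the WT range. mt-Nd2, mt-Nd4, mt-Nd5 and mt-Nd6 gave estimates between -0.11 and -0.016 with standard errors of 0.16 to 0.22. For mt-Nd5 the 4 cKO libraries spanned 3559 to 3865 CPM. WT 1 and WT 2 lay below them at 3155 and 2916 CPM, and WT 3 and WT 4 above them at 5529 and 4231 CPM. Because the strandedness of the libraries is not given, reads of mt-Nd6 cannot be told from those of the opposite strand, and it shares 14 bases with mt-Nd5.

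mt-Nd3 was the member with the smallest p. It was measured at 60.9, 49.1, 63.5 and 50.6 CPM in WT 1 to 4 and at 79.7, 70.0, 76.3 and 53.3 CPM in cKO 1 to 4. Libraries 1 to 3 of cKO lay above every WT library, and cKO 4 lay within the WT range. The log2 fold change was 0.32 ± 0.14 (SE), or 1.25-fold, with an unadjusted edgeR p of 0.0478 and an adjusted p of 0.921. Its estimate stayed above 0 under all 22 alternatives, from 0.22 with limma's quality weights to 0.51 with the length and GC offsets. Adding the counts of Gm28438 gave 0.32 ± 0.14.

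mt-Nd4l, another core subunit of complex I, had the widest difference and the widest error. Its 297 bases (chrM:9877-10173, plus strand) are shown with the 7 bases that overlap the start of mt-Nd4 in capitals, and the first 294 bases are those of Gm10222 (chr1:24612407-24612700, minus strand).
mt-Nd4l: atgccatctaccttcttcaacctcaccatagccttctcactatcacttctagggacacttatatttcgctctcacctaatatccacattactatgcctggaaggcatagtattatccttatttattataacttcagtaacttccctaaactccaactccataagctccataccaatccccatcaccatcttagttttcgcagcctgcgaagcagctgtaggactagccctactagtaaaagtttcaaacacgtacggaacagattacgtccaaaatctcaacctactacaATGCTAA
It received 366, 2564, 275 and 266 counts in WT 1 to 4 and 361, 306, 198 and 160 counts in cKO 1 to 4. WT 2 stood alone, at 142 CPM against 10.3 to 21.4 CPM in the other 7 libraries, which overlapped between the groups. The log2 fold change of -1.68 ± 0.83 (SE) had an edgeR adjusted p of 0.921, and without WT 2 it was -0.21 ± 0.25. In WT 2 the neighbours on the same strand did not stand apart: mt-Nd4 was at its lowest there, 3023 CPM, and mt-Nd3 as well, 49.1 CPM. Gm10222 received 112 counts in WT 2, within its range of 111 to 198.

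Complex III passes electrons to cytochrome c and has 1 member. mt-Cytb stood between 10357 and 14769.6 CPM in WT and between 10506 and 13102 CPM in cKO, with a log2 fold change of -0.073 ± 0.16 (SE). Its highest library was 1.43 times its lowest, the narrowest spread of the 28 tested members. The 95% interval of the cKO to WT ratio was 0.744 to 1.22.

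Complex IV reduces oxygen. mt-Co1 was measured at 26683, 26454, 40342 and 34084 CPM in WT 1 to 4 and at 30868, 26789, 33097 and 30059 CPM in cKO 1 to 4. The cKO values fell between the WT extremes, and the log2 fold change was -0.078 ± 0.18 (SE), a ratio of 0.947 with a 95% interval of 0.724 to 1.24. mt-Co2 gave -0.18 ± 0.17, with -0.34 to -0.045 when 1 library was left out, and mt-Co3 gave -0.0068 ± 0.22. Both are among the mRNAs with near-complete nuclear copies, and the part of read assignment in their counts was not tested. For mt-Co2 the WT libraries lay close together, from 136 to 155 CPM, with cKO 1 above them at 172 CPM and cKO 3 and cKO 4 below them at 109.8 and 92.5 CPM.

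ATP synthase has 2 members. mt-Atp6 stood at 76.0, 47.5, 170.2 and 84.6 CPM in WT 1 to 4 and at 89.7, 128, 42.9 and 44.9 CPM in cKO 1 to 4. The highest library was 3.97 times the lowest, and the log2 fold change of -0.31 ± 0.49 (SE) was smaller than its error. With the counts of Gm10925 added it was -0.22 ± 0.30. mt-Atp8 gave -0.29 ± 0.53 from 3 to 18 counts per library, with a 95% interval of the ratio from 0.367 to 1.83.

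The 2 rRNAs form the RNA core of the mitochondrial ribosome. They took 1.27% to 2.19% of chromosome MT counts, with mean levels of 427 FPKM for mt-Rnr1 and 346 FPKM for mt-Rnr2. Whether the library kit selected mRNA or removed rRNA is stated in none of the sources used here. These values therefore cannot be read as the level of rRNA in the cells. mt-Rnr2 was measured at 394, 355, 1073 and 485 CPM in WT 1 to 4 and at 620.0, 524, 438 and 541 CPM in cKO 1 to 4. WT 3 lay above the other 7 libraries for both rRNAs, and the estimates were -0.070 ± 0.27 for mt-Rnr1 and -0.12 ± 0.33 for mt-Rnr2 (SE). Without WT 3 they turned to 0.30 ± 0.16 and 0.37 ± 0.15, with an adjusted p of 0.952 for both in edgeR. The log2 ratio of rRNA to mRNA counts was -6.07 ± 0.397 in WT and -6.01 ± 0.177 in cKO (SD, n = 4 each), with an exact permutation p of 0.829.

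The 22 tRNAs, which are 59 to 75 bases long in the table, took 0.181% to 0.285% of chromosome MT counts. mt-Tp, the tRNA for proline, held 59.3% to 69.0% of all tRNA counts with a mean of 1404 FPKM, while its neighbour mt-Tt on the opposite strand had 20 counts in all libraries together against 12962. Strandedness is not given, so these counts cannot be read as a difference between the strands. mt-Tf was listed at 0 counts in all 8 libraries. Of the 13 tested tRNAs 10 were higher and 3 lower in cKO, with a median log2 fold change of 0.087 and standard errors from 0.25 to 0.63. The 3 estimates farthest above 0 were those of mt-Te, the glutamate tRNA, at 0.76 ± 0.49, mt-Ts2, a serine tRNA, at 0.55 ± 0.31, and mt-Tg, the glycine tRNA, at 0.38 ± 0.40 (SE). mt-Te had 46 to 66 counts in WT 1 to 3 and 22 in WT 4, against 116 and 129 in cKO 1 and cKO 2 and 52 and 25 in cKO 3 and cKO 4. So the lower cKO libraries lay among the WT values, and the edgeR adjusted p was 0.921.

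Reads from mature tRNAs are short and modified, and counts on a tRNA gene can also come from uncut precursors or from a neighbouring gene that overlaps it. In the table mt-Ti shares 2 bases with mt-Nd1, and mt-Tw shares 2 with mt-Nd2. mt-Tg lies between mt-Co3 and mt-Nd3, and mt-Tr between mt-Nd3 and mt-Nd4l, genes whose copies are neighbours on chromosome 1. The letters between those copies were not analysed here, so a nuclear counterpart of these tRNAs was not tested. mt-Ti rested on 4 to 29 counts per library, with 29 in WT 3 and 4 in both WT 2 and WT 4. The other tested tRNAs were mt-Tl1 at 0.010, mt-Tw at 0.087, mt-Tn at 0.024, mt-Tc at -0.23, mt-Ty at 0.16, mt-Tr at -0.42, mt-Th at 0.37, mt-Tl2 at 0.31, mt-Ti at 0.054 and mt-Tp at -0.073 log2 fold change, each with an adjusted p of at least 0.921 in edgeR.

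**Figure D5:**
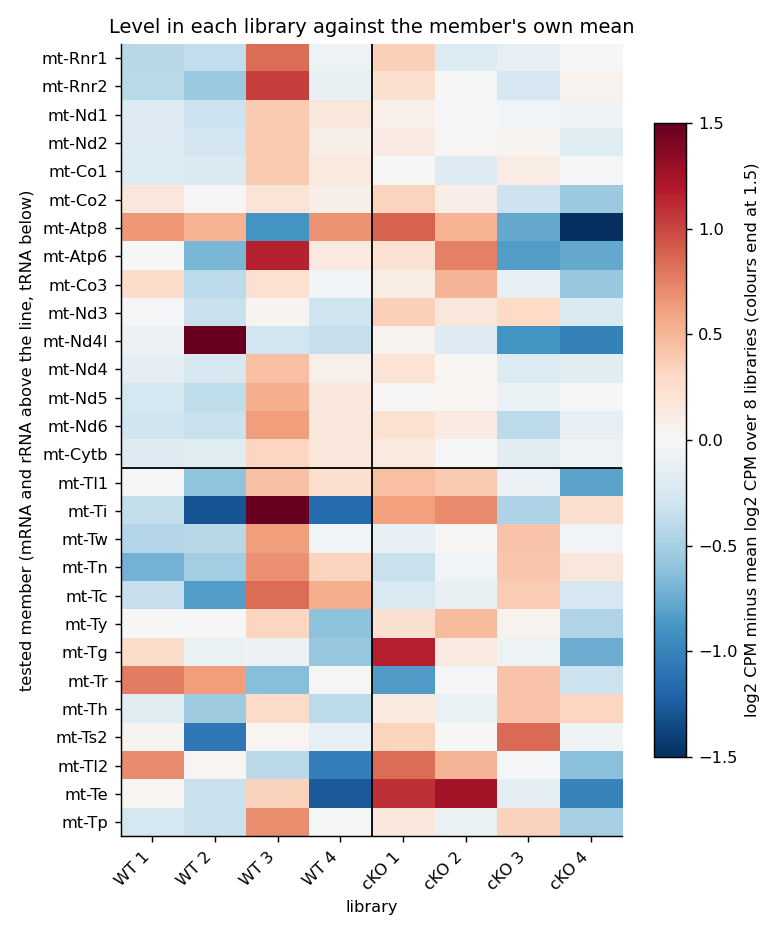
Log2 CPM of each tested member in each library minus its mean over the 8 libraries, red above and blue below. The WT 3 column is red for most mRNAs and rRNAs, with mt-Atp8 blue, and the WT 2 square of mt-Nd4l stands out at the end of the colour scale.

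The nuclear genes that serve the mitochondrial genome were read as lists. Of 11 genes of mitochondrial transcription, 0 were called, 3 were higher and 8 lower, with a median log2 fold change of -0.11. Polrmt, the RNA polymerase, gave 0.19 ± 0.12, and Tfam, the promoter-binding and DNA-packaging factor, -0.075 ± 0.14 (SE). Lrpprc, which holds the mRNAs, gave -0.10 ± 0.11, and Pnpt1, the ribonuclease of RNA decay, -0.35 ± 0.22, in a list of 8 tested genes of RNA stability with 4 on each side of 0. Among 16 genes of mitochondrial DNA replication 8 were higher, and Mgme1, an exonuclease of that process, gave -0.27 ± 0.13. Of 27 genes of RNA processing and modification 17 were higher, with Nsun3, a tRNA methyltransferase, at -0.36 ± 0.18.

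Genes of mitochondrial translation made up 3 lists. Of 76 mitochondrial ribosomal protein genes 51 were higher and 25 lower in cKO, with a median of 0.044, 0 called and 3 at an unadjusted edgeR p below 0.05. Over all tested genes 50.5% were higher and 3.9% had an unadjusted edgeR p below 0.05. The summed level of the list was lowest in WT 3, at 3094 CPM. WT 1, WT 2 and WT 4, at 3663, 3660 and 3562 CPM, lay inside the cKO range of 3419 to 3843 CPM. Mrps6 gave 0.34 ± 0.12, Mrps34 0.36 ± 0.14 and Mrpl47 -0.28 ± 0.13 (SE), all with an edgeR adjusted p of 0.921. Of 22 aminoacyl-tRNA synthetases 10 were higher, Wars2 standing at -0.26 ± 0.13, and of 14 translation factors 7 were higher, Mtif2 standing at -0.29 ± 0.16. Among 11 regulators of mitochondrial biogenesis 5 were higher, 0 were called and 1, Nrip1, had an unadjusted p below 0.05. In the other lists of mitochondrial gene expression 0 genes were called and 0 had such a p. Ppargc1a, a coactivator of that programme, gave -0.022 ± 0.18, and Nrip1, a corepressor, -0.28 ± 0.12.

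The nuclear partners of the mitochondrial subunits showed medians near 0. Of 36 nuclear genes of complex I 17 were higher and 19 lower, with a median of -0.0032. The medians were 0.037 for 4 genes of complex II, which has no mitochondrial member, -0.024 for 9 of complex III, -0.052 for 11 of complex IV and -0.029 for 15 of ATP synthase. The 13 mitochondrial mRNAs, taken over all their complexes together, had a median of -0.078. With the rRNAs included, the median of the 15 members was also -0.078. That direction turned with the setting. The median of the 15 was 0.087 without WT 3, and 0.12 with length and GC offsets and all 8 libraries kept. The medians of the nuclear lists are given for the main fit only. None of these nuclear genes was called by edgeR or had an unadjusted p below 0.05. Over all 14701 tested genes 0.0136% were called and 3.9% had such a p. Genes named for their small p were Ndufs5 at -0.35 ± 0.18, Sdha at -0.11 ± 0.10, Uqcrb at -0.29 ± 0.15, Cox7b at -0.18 ± 0.12 and Atp5f1 at -0.16 ± 0.12 log2 fold change (SE). All of these lay below 0, but they do not stand for their lists. Higher in cKO were 3 of 4 genes of complex II, 4 of 9 of complex III, 4 of 11 of complex IV and 6 of 15 of ATP synthase.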

How the data were processed

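Gene counts of 4 WT and 4 cKO libraries were used as deposited: whole-number counts per gene, which the submitters made with Hisat2 and Stringtie from Illumina reads, per the series' design text. FPKM values deposited by the authors beside the counts served for levels per length. None of the sources used here states versions, genome build, kit, strandedness or the handling of reads with several positions. The members, gene lists and tests were chosen with earlier results of these data known.

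Counts were tested with edgeR 4.0.16 (TMM scaling, filterByExpr, robust quasi-likelihood F-test, Benjamini-Hochberg adjustment over 14701 genes, R 4.3.3) in a model of the 2 groups, and CPM are TMM-scaled. The script was tested on simulated counts. Shares and ratios of counts were compared with exact two-sided permutation tests (SciPy 1.17.1). Members were searched in GENCODE M21 transcripts (GRCm38) and aligned to nuclear copies with Biopython 1.88; 97.1% of matched identifiers had the table's coordinates.

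Alternatives were DESeq2 1.42.0, limma 3.58.1 (quality weights, and log2 of FPKM plus 0.1 or 1), other scalings and filters, each library left out, both libraries numbered 3 left out, a replicate block, and offsets for length and GC content. The addition of copy counts was chosen after seeing the data. The named genes are all 13 mRNAs, both rRNAs, the tested tRNAs, up to 3 genes per nuclear list by smallest p with Rictor, Tfam, Polrmt, Lrpprc and Ppargc1a, and up to 5 nuclear copies by mean count; Gm10222, Gm28438, Gm13340 and the untested mt-Tt and mt-Tf were named after their values were seen. Depth ran from 15110451 to 18708335 counts, and intervals come from the fit.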

Additional observations from a re-analysis of the deposited data

Results flagged for a closer look

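In each group of 4 libraries, the gap between the most extreme library and its nearest neighbour was set against the group's whole range, and a gap large by Dixon's criterion was noted for 6 of 74 groups. Chance gives about 1 in 20. For mt-Nd4l in WT the gap to WT 2 was 0.975 of the range, with 142 CPM there and 16.3 to 19.4 CPM in the other WT libraries. For the log2 ratio of rRNA to mRNA counts in WT it was 0.964, with -5.48 in WT 3 and -6.28 to -6.25 in the others. WT 3 was also alone for mt-Ti, by 0.871 of the range, with 1.79 CPM against 0.221 to 0.424, and for mt-Atp8, by 0.855, with 0.309 CPM against 0.829 to 0.917. In cKO, mt-Nd1 was apart in cKO 1 by 0.833 of the range, with 6125 CPM against 5606 to 5692, and mt-Nd5 in cKO 3 by 0.832, with 3559 CPM against 3814 to 3865. mt-Ti and mt-Atp8 rest on few counts, 4 to 29 and 3 to 18 per library.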

How the results depend on the processing

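No member was called under any of the 22 alternatives, and none of the nuclear genes or copies in those run for them. Most estimates are smaller than their errors, and directions turned for 20 of the 28 members in at least 1 setting. mt-Nd3, mt-Co2, mt-Nd4l, mt-Tr, mt-Th, mt-Ts2, mt-Ty and mt-Te kept theirs in every setting.

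With 1 library left out, the log2 fold change ran from -0.20 to 0.30 for mt-Rnr1, -0.29 to 0.37 for mt-Rnr2, -0.16 to 0.087 for mt-Nd1, -0.11 to 0.13 for mt-Nd2, -0.17 to 0.074 for mt-Nd4, -0.19 to 0.14 for mt-Nd5, -0.23 to 0.12 for mt-Nd6, -0.14 to 0.030 for mt-Cytb and -0.16 to 0.055 for mt-Co1. It ran from -0.20 to 0.15 for mt-Co3, -0.67 to 0.14 for mt-Atp6 and -0.70 to 1.6e-05 for mt-Atp8. Among tRNAs it ran from -0.16 to 0.21 for mt-Tl1, -0.24 to 1.18 for mt-Ti, -0.046 to 0.37 for mt-Tw, -0.15 to 0.31 for mt-Tn, -0.45 to 0.070 for mt-Tc, -0.090 to 0.60 for mt-Tg and -0.20 to 0.21 for mt-Tp. Without a turn of direction it ran from -0.34 to -0.045 for mt-Co2, 0.25 to 0.43 for mt-Nd3, -1.96 to -0.21 for mt-Nd4l, -0.66 to -0.21 for mt-Tr, 0.27 to 0.56 for mt-Th, 0.32 to 0.66 for mt-Ts2, 0.063 to 0.69 for mt-Tl2, 0.0067 to 0.30 for mt-Ty and 0.44 to 1.04 for mt-Te. Among nuclear genes it ran from -0.15 to 0.032 for Tfam, -0.11 to 0.13 for Ppargc1a, -0.14 to 0.26 for Gm28437, -0.13 to 0.11 for Gm29216 and -0.18 to 0.18 for Gm28439. The difference in mitochondrial share ran from -0.61 to 0.19 percentage points, and that in the percent of mRNA counts from -0.28 to 1.01 for complex I, -1.61 to 0.80 for complex IV and -0.048 to 0.0077 for ATP synthase. The difference in log2 ratio ran from -0.0028 to 0.27 for rRNA over mRNA, -0.014 to 0.20 for tRNA over mRNA, -0.060 to 0.075 for mt-Rnr2 over mt-Rnr1 and -0.11 to 0.099 for mt-Nd6 over the other mRNAs. The summed CPM of copies differed by -52.3 to 2.20.

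Without both libraries numbered 3, the estimates turned to 0.35 for mt-Rnr1, 0.45 for mt-Rnr2, 0.10 for mt-Nd1, 0.12 for mt-Nd2, 0.0080 for mt-Co1, 0.34 for mt-Atp6, 0.11 for mt-Co3, 0.13 for mt-Nd4, 0.16 for mt-Nd5, 0.22 for mt-Nd6, 0.075 for mt-Cytb, 0.078 for mt-Tp, 0.26 for Ppargc1a, 0.024 for Gm10925 and 0.078 for Gm29216. The mitochondrial share then differed by 0.23 percentage points, ATP synthase by 0.027 percentage points of mRNA, mt-Nd6 over the other mRNAs by 0.17 on the log2 scale, and the copies by 8.56 CPM.

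Limma's quality weights, lowest for cKO 3 at 0.192 and WT 3 at 0.452, gave 0.22 for mt-Rnr1, 0.35 for mt-Rnr2, 0.10 for mt-Nd1, 0.072 for mt-Nd2, 0.12 for mt-Tc, 0.019 for mt-Co1, 0.047 for mt-Atp6, -0.072 for mt-Tg, 0.043 for mt-Nd4, -0.039 for mt-Tl2, 0.18 for mt-Nd5, 0.15 for mt-Nd6, 0.046 for mt-Cytb, 0.21 for Ppargc1a, -0.0027 for Gm28437 and 0.0083 for Gm29216. Length and GC offsets gave 0.14 for mt-Rnr1, 0.090 for mt-Rnr2, -5.1e-05 for mt-Tl1, 0.16 for mt-Nd1, 0.21 for mt-Nd2, 0.14 for mt-Co1, 0.17 for mt-Co3, 0.12 for mt-Nd4, 0.15 for mt-Nd5, 0.054 for mt-Nd6, 0.12 for mt-Cytb, 0.14 for Ppargc1a, 0.029 for Atp5f1, 0.067 for Gm10925 and 0.15 for Gm29216. Mitochondrial mRNA counts as library size gave 0.042 for mt-Rnr1, 0.021 for mt-Rnr2, 0.024 for mt-Nd1, 0.057 for mt-Nd2, 0.043 for mt-Co3, 0.027 for mt-Nd5, 0.020 for mt-Tp, 0.045 for Ppargc1a and 0.033 for Gm29216. Upper-quartile scaling gave 0.0067 and added copy counts 0.031 for mt-Co3. On log2 FPKM, mt-Rnr1 was 0.010, mt-Rnr2 0.019, mt-Nd2 0.0036 and mt-Tl1 -0.026 with 0.1 added and -0.024 with 1 added. The cause of these turns was not tested.

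Same-numbered libraries of the groups correlated at -0.11, 0.11, 0.15 and 0.14 in their deviations from the group means. The best-correlated cKO library had the same number for WT 3 and WT 4, while it was cKO 2 for WT 1 and cKO 1 for WT 2. These values do not settle whether the numbers mark pairs, and the main model did not treat them as pairs. With the replicate block, 0 members were called, and the estimates turned to 0.016 for mt-Rnr1, 0.038 for mt-Rnr2, 0.0047 for mt-Nd2 and -0.012 for mt-Tl1. Over all genes the block gave 0 calls against 2 without it. Over all genes the count of calls was 42 with mitochondrial mRNA as library size, 37 with DESeq2, 10 without a filter, and 8 with quality weights.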

Other observations

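The summed level of the other marker lists, which served to check the labelled cell type, was at most 18.8 CPM in any library for B and plasma cells, 17.0 CPM for myeloid cells, 2.31 CPM for endothelium, 1.24 CPM for smooth muscle and 2.36 CPM for neurons and glia. Epithelial lists ran higher: tuft cell markers summed to 54.7 to 86.3 CPM, enteroendocrine markers to 369.8 to 615 CPM, goblet cell markers to 5992 to 8724 CPM, crypt stem and proliferation markers to 3262 to 4810 CPM and Paneth cell markers to 11556 to 21229 CPM. No gene of these lists was called by edgeR. An unadjusted edgeR p below 0.05 was found for 4 of 5 enteroendocrine markers (estimates above 0) and 1 of 4 tested myeloid markers (Csf1r, above 0). It was also found for 2 of 5 Paneth markers (Lyz1 and Ang4, below 0) and 1 of 6 goblet markers (Clca1, below 0). Over all genes tested the share was 3.9%. Of the Paneth markers 3 were higher and 2 lower in cKO, and of the goblet markers 3 were higher and 3 lower. All 5 enteroendocrine and all 4 tested myeloid markers were higher.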
